A study of Mus musculus with 15 samples.

Results

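Translation of most mRNAs begins when a small ribosomal subunit, carried by initiation factors, is recruited to the capped mRNA, scans to a start codon and is joined there by the large subunit. The mRNAs described here encode 5 proteins of that process: Eif5b, the GTPase that joins the large subunit at the start codon; Eif3a and Eif3c, core subunits of the factor eIF3 that holds the small subunit; Eif4g1, the scaffold on which the cap-binding protein, the RNA helicase and eIF3 assemble; and Abcf1, an ATP-binding protein that in mammalian cell extracts associates with eIF2 and ribosomes and promotes initiation. They were taken by symbol, 5 of 55490 genes in the table, from earlier results of these same libraries in which Eif5b stood out by its share of the protein-coding counts. Their levels by stage and genotype are therefore a description of what chose them, and an adjusted p printed for them is the value of their row in a fit of the whole table, not independent evidence.

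The libraries hold ribosome-protected RNA fragments of mouse eggs and embryos (strain B6D2F1) from female donors that were knockout (KO) or heterozygous (Het) for Eif4e1b, a relative of the cap-binding protein eIF4E found in eggs, and that all carried the Rpl22 HA allele, which tags a large-subunit protein and lets ribosomes be pulled down. M2 eggs gave 2 libraries of each genotype and PN5 zygotes 3 of each, while the early 2-cell stage gave 3 Het and 2 KO libraries. A library was a pool of about 200 eggs or zygotes, or of about 100 embryos at the early 2-cell stage. No wild-type eggs were compared. The genotype is that of the mother. The labels give neither the embryo's genotype nor a separate animal for each library, and p-values here speak only of the spread between these 15 samples. In an egg, translation runs on stored maternal mRNA, and ribosome occupancy changes as that store is recruited, silenced or removed before the embryo transcribes its own genes.

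The mRNA signal was thin. A library held 1059 to 47399 counts in protein-coding genes, 0.696% to 5.10% of its total, and the early 2-cell libraries (1059 to 7795) lay mostly under those of M2 eggs (5997 to 47399) and PN5 zygotes (8614 to 39997). Eif4e1b, the deleted gene, and Rpl22, the tagged one, had 0 counts in all 15 libraries, so neither gene could serve as a check of the labels. Of 13 egg and oocyte markers, 7 had counts, Npm2 with 351 in all, and 6 were at 0, among them Zp1, Zp2 and Zp3, which encode the egg coat. The egg markers summed to between 0% and 1.07% of a library's protein-coding counts. Of 11 cumulus and granulosa markers 5 had counts, mostly Cyp11a1 with 561, and their sum took 0.0847% to 0.888% in PN5 KO zygotes (414 counts in 3 libraries) and 0% to 0.0135% in PN5 Het (5 counts), while egg markers had 60 counts in PN5 KO and 364 in PN5 Het. In M2 eggs the cumulus sum was 0.0404% to 0.765% in Het and 0% to 0.116% in KO. The part of either marker group in the genotype values below was not tested. Of 10 genes typical of the 2-cell embryo 1 had counts, of 6 blood markers 1, and of 6 sperm markers 0. Levels are percentages of a library's protein-coding counts, and a library with no count allows a level of up to 3 counts, 0.00633% in the deepest and 0.283% in the shallowest library. Intervals and such floors cover counting error only, because reads amplified by PCR and lacking molecular identifiers do not each stand for 1 molecule. In pooled material, fewer eggs or embryos and less ribosome-bound RNA in each cannot be told apart.

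Eif5b (ENSMUSG00000026083, chromosome 1, 37998010 to 38055579 on GRCm38) was the one initiation factor with counts in every library. It had 13434 counts in all, and 48 of 21447 protein-coding genes had a count in all 15 libraries. In M2 Het eggs it took 5.06% of the protein-coding counts in replicate 1 (95% exact binomial interval 4.76% to 5.36%) and 7.37% in replicate 2 (7.03% to 7.72%). In M2 KO eggs it took 10.4% in replicate 1 (9.60% to 11.2%) and 6.45% in replicate 2 (6.23% to 6.68%). The genotypes overlapped, and the largest of these values came from the shallowest egg library, with 5997 protein-coding counts.

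In PN5 Het zygotes the Eif5b share was 3.49% in replicate 1 (3.30% to 3.68%), 3.39% in replicate 2 (3.20% to 3.59%) and 11.7% in replicate 3 (11.1% to 12.4%). PN5 KO zygotes held 4.24% (3.92% to 4.57%), 4.70% (4.32% to 5.10%) and 5.35% (5.13% to 5.58%) in replicates 1 to 3. PN5 Het replicate 3 stood far above the other two Het zygote libraries and was the library with the highest Eif5b share of all 15. It held 8614 protein-coding counts, the fewest of any zygote library, and Eif5b had more counts there than any other protein-coding gene.

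Early 2-cell Het embryos held an Eif5b share of 3.68% in replicate 1 (2.63% to 5.0%), 2.18% in replicate 2 (1.53% to 3.0%) and 1.59% in replicate 3 (1.32% to 1.89%). In early 2-cell KO embryos it was 2.83% in replicate 1 (2.08% to 3.76%) and 3.70% in replicate 2 (2.68% to 4.96%). These rest on 36 to 124 counts of Eif5b a library, and the genotypes overlapped here too. In the same 3 Het libraries the kinase mRNA Cdk11b had the most counts of any protein-coding gene, 5.95%, 21.0% and 15.9%, while it had 0 counts in both KO libraries of that stage, in PN5 Het replicate 3 and in M2 KO replicate 1. The last-named pair had the highest Eif5b shares. Its part in the Eif5b values was not tested.

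**Figure D1:**
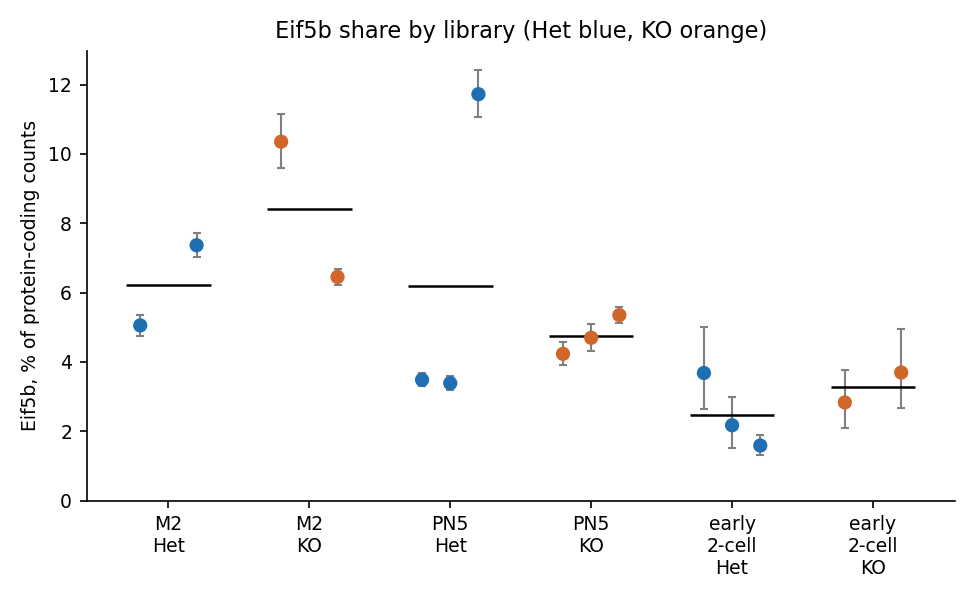
Share of protein-coding counts that fell in Eif5b (y axis, percent) in each of the 15 libraries, grouped by stage and maternal genotype (x axis). Points are libraries in replicate order, bars their 95% exact binomial intervals, and horizontal lines group means; PN5 Het replicate 3 at 11.7% lies apart from the other two libraries of its group, and all early 2-cell libraries lie under all M2 libraries.

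By group mean, Eif5b stood in the order M2 KO (8.40 ± 2.76%, SD, n = 2), M2 Het (6.21 ± 1.63%, n = 2), PN5 Het (6.20 ± 4.79%, n = 3), PN5 KO (4.76 ± 0.562%, n = 3), early 2-cell KO (3.27 ± 0.610%, n = 2) and early 2-cell Het (2.48 ± 1.08%, n = 3). Neighbours in this order overlapped in their libraries, except PN5 KO and early 2-cell KO. The share of tested genes without overlap between those groups was not computed, so that gap is not set apart from other genes. The place of PN5 Het in the order rests on its replicate 3, since the other libraries of that group were at 3.49% and 3.39%. The spread between libraries was larger than counting error in each group except early 2-cell KO, where the intervals of the 2 libraries overlapped. The SD was 9.92 times the counting SD in M2 Het, 11.2 times in M2 KO, 30.9 times in PN5 Het, 3.38 times in PN5 KO, 3.35 times in early 2-cell Het and 1.27 times in early 2-cell KO.

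By stage, with the genotypes together, the lowest, median and highest Eif5b shares were 5.06%, 6.91% and 10.4% in M2 eggs (n = 4), 3.39%, 4.47% and 11.7% in PN5 zygotes (n = 6), and 1.59%, 2.83% and 3.70% in early 2-cell embryos (n = 5). All 5 early 2-cell libraries lay below all 4 egg libraries. That separation in that direction held for 6.06% of the 495 tested genes (2.83% in the other direction), and of the 5 mRNAs for Eif5b only. A gene with an egg library at 0 counts, as Eif3c, Eif4g1 and Abcf1 had, could not separate in that direction whatever its level. Of the genes whose share followed Eif5b most closely (below), Map1b, Top1, Ncl and Golgb1 separated in the same way, and Nexn overlapped. The zygote libraries overlapped both other stages for all 5. Among the tested genes, 1.41% lay lower and 2.63% higher in early 2-cell embryos than in zygotes without overlap, and 0.404% lower and 0.202% higher in zygotes than in eggs. The early 2-cell libraries were the shallowest but for Het replicate 3, with 7795 protein-coding counts and an Eif5b share of 1.59%. M2 KO replicate 1, with fewer counts (5997), was at 10.4%.

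The fit across all genes was scaled by each library's counts in the 495 tested genes, with TMM factors. There Eif5b was at -0.47 on the log2 scale from M2 to PN5 over both genotypes (SE 0.57, edgeR quasi-likelihood test, adjusted p = 1.00 by Benjamini-Hochberg over 495 genes). From PN5 to the early 2-cell stage it was -2.36 (SE 0.59), and by edgeR it did not pass (adjusted p = 0.0613, unadjusted p = 0.00111). The median of all 495 genes moved by -2.01 on the same scale, so Eif5b lay 0.35 under the median of the table, and 44.6% of the tested genes had a lower fold change. Over the 425 tested protein-coding genes alone, the median was -2.36, the value of Eif5b itself. With DESeq2 size factors in the edgeR fit, Eif5b was at -1.39 beside a median of -1.24 over all tested genes. On the scale of protein-coding totals the log2 fold change was -0.93 (SE 0.63, adjusted p = 0.401) beside a median of -0.85. DESeq2 called Eif5b lower in early 2-cell embryos (-1.39, adjusted p = 0.00204) and so did limma-voom (-2.24, adjusted p = 0.0427), in fits that called 10.7% and 4.24% of the 495 genes. In the edgeR fit 0.808% of genes were called in this comparison, 0 higher and 4 lower, and with protein-coding totals 2 were called higher and 0 lower. None of the 4 was on the list of translation factors.

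The KO and Het libraries overlapped in their Eif5b share at every stage. The mean of the 3 within-stage differences of group means was 0.513 percentage points, KO above Het. The stages gave 2.19, -1.44 and 0.783 points in M2 eggs, PN5 zygotes and early 2-cell embryos. Without PN5 Het replicate 3 the mean difference was 1.43 points, and without M2 KO replicate 1 it was -0.138. With all 3 libraries numbered replicate 3 left out together, which the labels number after the rest, it was 1.19 points, a setting chosen after seeing the data. In the edgeR fit the log2 fold change of KO over Het was 0.15 (SE 0.89) in M2 eggs, -0.39 (SE 0.73) in PN5 zygotes and 0.08 (SE 0.82) in early 2-cell embryos, each with an adjusted p of 1. Of all tested genes, 24%, 6.46% and 11.7% had genotypes that did not overlap in M2 eggs, PN5 zygotes and early 2-cell embryos. The PN5 value turned to 0.27 without PN5 Het replicate 3, the M2 value to -0.28 without M2 Het replicate 1, and the early 2-cell value to -0.079 without early 2-cell Het replicate 3. Across the 3 stages it was -0.05 (SE 0.47, adjusted p = 1.00). The difference between the KO effects of PN5 zygotes and M2 eggs was -0.55 (SE 1.15, adjusted p = 1.00), and that between early 2-cell embryos and zygotes 0.47 (SE 1.09, adjusted p = 1.00).

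The eIF3 complex was seen through few of its subunits. Of the 14 eIF3 genes listed, 4 had any count: Eif3a with 1167, Eif3c with 280, Eif3j1, a loosely bound subunit, with 13, and Eif3b, the scaffold of its RNA-recognition module, with 10. The other 10 subunits (Eif3d, Eif3e, Eif3f, Eif3g, Eif3h, Eif3i, Eif3j2, Eif3k, Eif3l and Eif3m) had 0 counts in all 15 libraries. So did most protein-coding genes, of which 3795 of 21447 had any count. Transcript lengths were not used here, so counts of different genes are not levels set against each other.

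Eif3a (ENSMUSG00000024991, chromosome 19, 60761116 to 60790693) had counts in 10 of 15 libraries. In M2 Het eggs it had 136 and 68 counts (0.478 ± 0.244%, n = 2) and in M2 KO eggs 44 and 409 (0.798 ± 0.0913%, n = 2). Both KO egg shares lay above both Het ones, while 12.1% of tested genes had KO above Het in M2 eggs without overlap and 11.9% below. The 95% intervals of M2 KO replicate 1 (0.534% to 0.984%) and M2 Het replicate 1 (0.546% to 0.769%) overlapped. By edgeR the difference was 0.64 on the log2 scale, with an SE of 2.03 and an adjusted p of 1. Zygotes held 161, 69 and 1 Eif3a counts in Het (0.219 ± 0.212%, n = 3) and 0, 50 and 192 in KO (0.301 ± 0.262%, n = 3). The PN5 genotypes overlapped, and the fitted log2 difference of 0.24 (SE 1.65) turned to -0.85 without PN5 KO replicate 3. In zygotes 3.43% of tested genes had KO above Het without overlap and 3.03% below, and in early 2-cell embryos 7.88% and 3.84%. None of the 5 mRNAs was among either.

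In early 2-cell embryos Eif3a had 0 counts in all 3 Het libraries, and 37 and 0 in the KO libraries. The 37 counts were 2.28% of the protein-coding counts of KO replicate 1, the highest Eif3a share of any library. The KO mean (1.14 ± 1.61%, n = 2) was at least 6.80-fold higher than Het, set against the mean of the Het libraries' floors of 3 counts each (0.168%), on the counts of that 1 library. It did not pass (adjusted p = 0.892 by edgeR, unadjusted p = 0.00933).

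Eif3a had no count in 5 libraries. PN5 KO replicate 1 had 15395 protein-coding counts and none in Eif3a, where the pooled share of the other two libraries of its group (0.467%) would give 71.9 counts. Early 2-cell KO replicate 2 would have held 25.9 counts at the share of replicate 1. The SD between libraries was 5.22 times the counting SD in M2 Het, 5.17 times in PN5 Het and 5.74 times in PN5 KO, and 1.03 times in M2 KO. The share of Eif3a had a coefficient of variation of 1.39 over the 15 libraries, rank 29 from the lowest among the 33 protein-coding genes with at least 1000 summed counts. Eif5b, at 0.565, ranked 5, and the median of the 33 was 0.839.

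Eif3c (ENSMUSG00000030738, chromosome 7, 126546911 to 126566366) was counted in 3 libraries. These were M2 Het replicate 1 with 44 counts, M2 KO replicate 2 with 203 and PN5 Het replicate 1 with 33. Of the libraries with none, PN5 KO replicate 3 (39997 protein-coding counts), PN5 Het replicate 2 (33198) and M2 Het replicate 2 (22260), were deeper than M2 Het replicate 1 (20907). At the share of its partner library, M2 Het replicate 2 would have held 46.8 counts and PN5 Het replicate 2 29.7. Its mean was 0.105 ± 0.149% in M2 Het and 0.214 ± 0.303% in M2 KO (n = 2 each), in both cases on 1 of 2 libraries. The fitted log2 difference was 1.22 with an SE of 2.74 (edgeR, adjusted p = 1). In PN5 zygotes the Het mean of 0.0298 ± 0.0516% (n = 3) was at least 1.71-fold above KO, which had 0 counts in 3 libraries, again on 1 library (adjusted p = 0.787). Eif3c had no count in any early 2-cell library.

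**Figure D2:**
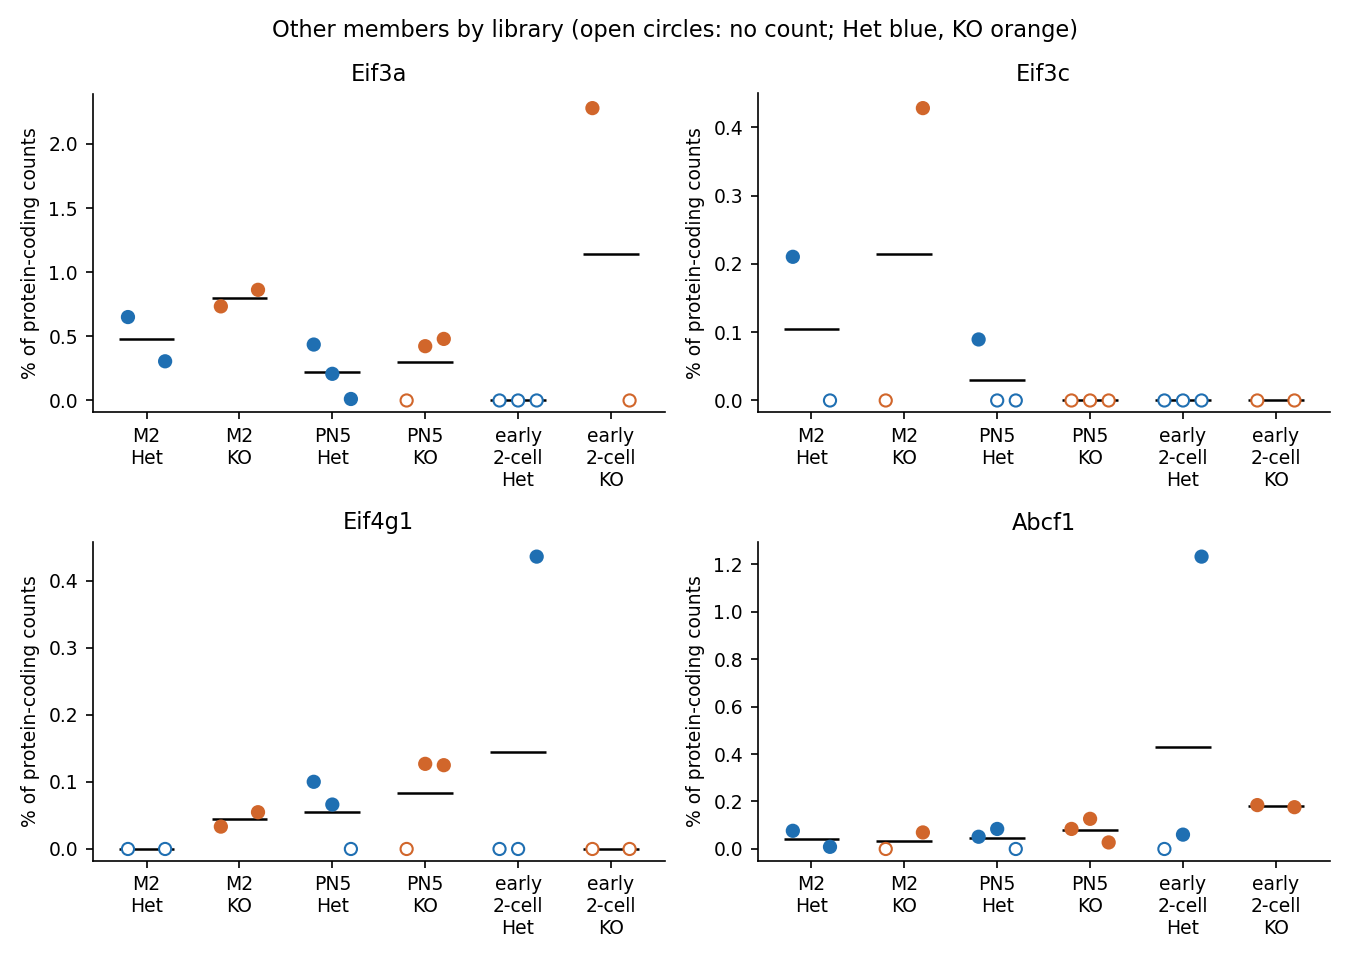
Share of protein-coding counts (y axes, percent, each gene on its own scale) of Eif3a, Eif3c, Eif4g1 and Abcf1 in each library by stage and maternal genotype (x axes). Open circles are libraries with no count and horizontal lines group means; Eif3c has counts in 3 libraries, Eif4g1 in 7, Eif3a in 10 and Abcf1 in 12, and single libraries set the early 2-cell means of Eif3a, Eif4g1 and Abcf1.

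Eif4g1 (ENSMUSG00000045983, chromosome 16, 20672720 to 20692883), whose protein binds eIF4E and so brings the cap to the small subunit, had 186 counts in 7 libraries. In M2 eggs it had 0 counts in both Het libraries and 2 and 26 in KO, a KO mean of 0.0441 ± 0.0152% (n = 2) that was at least 3.17-fold above Het (adjusted p = 1 by edgeR). By share the libraries separated the genotypes with KO higher, as for Eif3a and 12.1% of tested genes (11.9% with KO lower). The 2 counts of M2 KO replicate 1 are fewer than the 3 counts of its floor. Their 95% interval (0.00404% to 0.12%) overlapped those of Het replicates 1 and 2, which reached up to 0.0176% and 0.0166%. By interval, only M2 KO replicate 2 (0.0358% to 0.0804%) lay above both Het libraries. PN5 Het zygotes held 37, 22 and 0 counts (0.0555 ± 0.0510%, n = 3) and PN5 KO zygotes 0, 15 and 50 (0.0840 ± 0.0728%, n = 3). These overlapped, and the fitted log2 difference of 0.30 (SE 1.83) turned to -0.64 without PN5 KO replicate 3. In early 2-cell embryos 34 counts lay in Het replicate 3 (0.436%) and none in the other two Het or the 2 KO libraries. The Het mean there, 0.145 ± 0.252% (n = 3), lay under the mean floor of the KO libraries (0.224%), so no fold is given (adjusted p = 0.897 by edgeR).

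Abcf1 (ENSMUSG00000038762, chromosome 17, 35956819 to 35969750) was counted in 12 libraries with 239 counts. The egg libraries held 16 and 2 counts in Het (0.0428 ± 0.0478%, n = 2) and 0 and 33 in KO (0.0348 ± 0.0492%, n = 2). The fitted log2 difference was -0.06, with an SE of 2.02 and an adjusted p of 1 by edgeR. Zygotes held 19, 28 and 0 in Het (0.0453 ± 0.0425%, n = 3) and 13, 15 and 11 in KO (0.0796 ± 0.0499%, n = 3), 0.33 apart on the log2 scale (SE 1.61). Every zygote KO library had 11 to 15 counts, and the Het library without any was PN5 Het replicate 3, the one in which Eif5b was highest. In early 2-cell embryos there were 0, 1 and 96 counts in Het (0.431 ± 0.694%, n = 3) and 3 and 2 in KO (0.180 ± 0.00621%, n = 2). The KO counts do not exceed the floor of 3 counts, and their SD was 0.0534 times the counting SD, so it understates the uncertainty. Het replicate 3 alone reached 1.23%, and without it the fitted log2 difference went from -1.87 (SE 2.00) to 1.93.

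Early 2-cell Het replicate 3 thus held both the highest Abcf1 and the highest Eif4g1 share of all libraries and the lowest Eif5b share. Eif5b made 48.8% of the counts of the 5 mRNAs there and 53.5% in early 2-cell KO replicate 1, against 82.0% to 100% in the other libraries. Over all libraries it made 87.8% of their 15306 counts. M2 KO replicate 2 and PN5 Het replicate 1 were the libraries with counts of all 5, and early 2-cell Het replicate 1 had counts of Eif5b alone.

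From PN5 to the early 2-cell stage Abcf1 was at 0.92 on the log2 scale (SE 1.24, edgeR adjusted p = 0.651), where the median of all genes was -2.01, and it turned to -0.98 without early 2-cell Het replicate 3. Eif3a from M2 to PN5 was at -1.25 (SE 1.29, adjusted p = 1.00) and Abcf1 at 0.58 (SE 1.29, adjusted p = 1.00). No other fitted stage change is given for the mRNAs that had a group without counts, since such a fold depends on the prior count. Between the KO effects of PN5 zygotes and M2 eggs, the fitted difference was -0.40 (SE 2.61) for Eif3a and 0.39 (SE 2.55) for Abcf1. Between those of early 2-cell embryos and PN5 zygotes it was -2.20 (SE 2.54) for Abcf1, and all 3 had an adjusted p of 1.00.

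**Figure D3:**
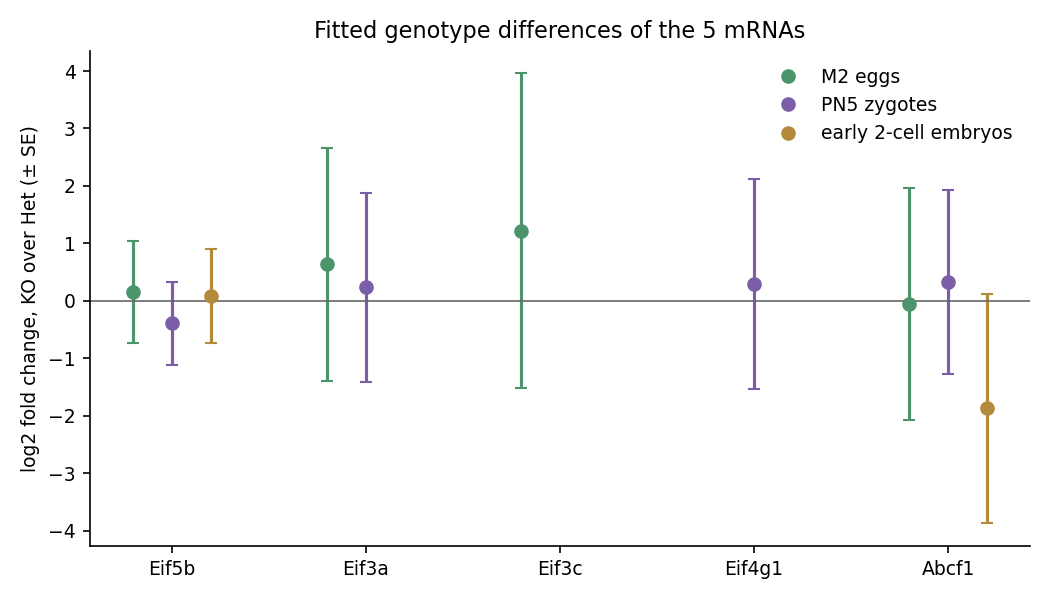
Log2 fold change of KO over Het (y axis, positive where KO is higher) with its SE from the edgeR fit across 495 genes, for the 5 mRNAs (x axis) at each stage. Combinations in which a group had no count are left out; the SE runs from 0.73 to 2.74 and exceeds the size of every fold change shown.

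Of the 5 mRNAs, all of which passed the low-count filter, 0 were called between KO and Het by edgeR at any of the 3 stages, in a table where 0% of the genes were called at each. DESeq2 also called 0 of them (0.404%, 0.404% and 0.808% of all genes in M2 eggs, PN5 zygotes and early 2-cell embryos), and so did limma-voom (0% at each). At an unadjusted p under 0.05 Eif3a in early 2-cell embryos was the 1 mRNA by edgeR and by DESeq2, and limma-voom had 0. Over the table that comparison had 25, 28 and 11 of 495 genes by these tools in turn. The median log2 fold change of the 5 was 0.64 in M2 eggs, 0.24 in PN5 zygotes and 0 in early 2-cell embryos, beside -0.015, 0 and 0 over all tested genes. Fitted values of mRNAs with a group at 0 enter these medians and counts, and depend on the prior count. In M2 eggs 4 of 5 were above 0, against 44.4% of all tested genes. In PN5 zygotes 3 of 5 were above 0 against 49.9%, and in early 2-cell embryos 2 of 5 against 37.2%. In early 2-cell embryos 2 of the 5 were below 0, and of the 495 genes 184 were above and 188 below. The rest were at exactly 0.

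The wider list of translation factors had 87 genes in the table, 37 with counts in some library and 50 without. Among all 21447 protein-coding genes, 3795 had a count in some library, so a gene without counts was the common case. Together they held 16678 counts, and without the 5 mRNAs above 1372. The subunit-joining and eIF5 group had counts in 3 of 7 genes and the eIF4 group in 8 of 16. For eIF2, eIF2B and the eIF2 kinases it was 5 of 15, for poly(A)-binding proteins and regulators of the mRNA ends 5 of 9, for ABC-F, recycling and scanning proteins 6 of 11, and for elongation and termination factors 5 of 11. Among genes with few or no counts were Eif1, which guards start codon choice, with 2 counts in 1 library, the helicase Eif4a1 with 12, the cap-binding Eif4e with 16, and the poly(A)-binding Pabpc1 and Pabpc1l with 0.

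The other 8 factors with the highest summed counts were Paip2b (250), Eef1a1 (175), Eif4g2 (130), Eif2s2 (121), Eif5 (114), Paip2 (100), Eif4g3 (77) and Eef2 (50). Eif4g2 and Eif4g3, relatives of the scaffold Eif4g1, differed from it in how often they were seen. Eif4g2 had 1 to 18 counts in each of 14 libraries and Eif4g3 1 to 23 in each of 12, while Eif4g1 had 2 to 50 in 7. Eif5, the activator of eIF2 GTP hydrolysis that acts before Eif5b, had counts in 11 libraries, from 3 to 23, and Eif2s2, a subunit of eIF2, in 6. Paip2b and Paip2, which restrain the poly(A)-binding protein, had counts in 3 libraries each, with 185 of the 250 of Paip2b in PN5 KO replicate 3. Of the elongation factors, Eef1a1, which brings aminoacyl-tRNA to the ribosome, had 93 of its counts in M2 KO replicate 2, and Eef2, the translocase, had at most 15 in a library.

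**Figure D4:**
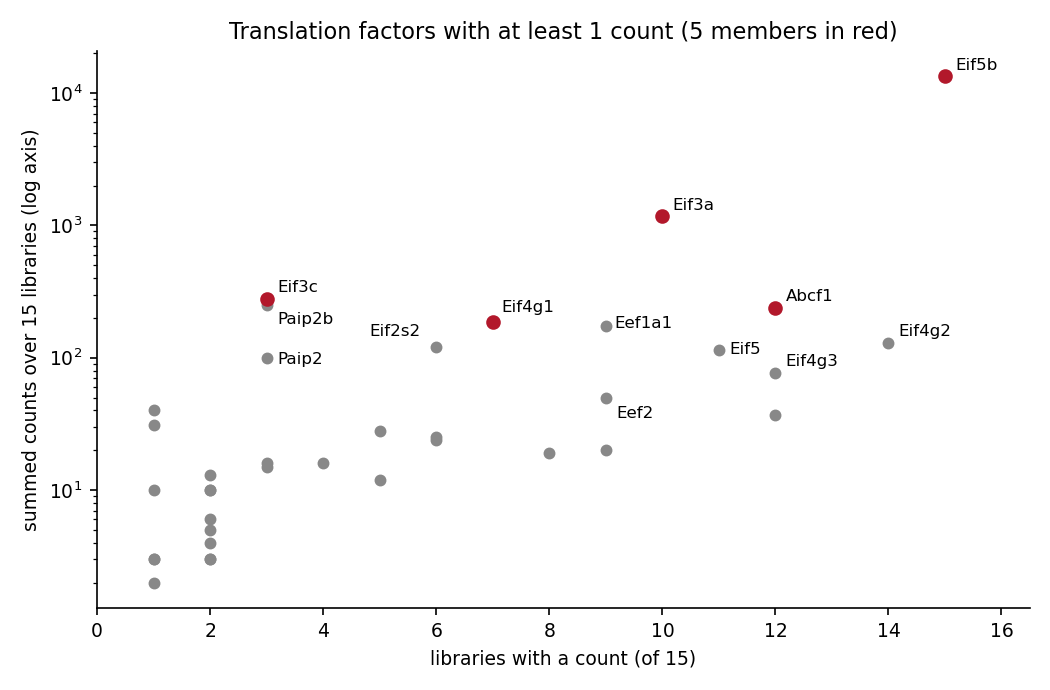
Summed counts over the 15 libraries (y axis, log scale) against the number of libraries with a count (x axis) for the 37 translation factors that had any, with the 5 described mRNAs in red. Eif5b, with 13434 counts in 15 libraries, lies apart, and Eif3c reached 280 counts in 3 libraries while Eif4g2 had 130 in 14.

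The 13 listed factors that were tested include the 5 mRNAs above. Of the 13, 0 were called between KO and Het at any stage, and 7, 7 and 6 were above 0 in M2 eggs, PN5 zygotes and early 2-cell embryos. Their medians were 0.14, 0.14 and 0, the last set by factors with no early 2-cell count (Eif2s2, Eif3c, Paip2 and Paip2b). From M2 to PN5, 8 of 13 were above 0 with a median of 0.51, where the table had a median of 0.19 and 54.5% of genes above 0. The 8 factors other than the 5 mRNAs had a median of 0.53, with 6 above 0. From PN5 to early 2-cell embryos 12 of 13 were below 0 with a median of -2.36, which is the value of Eif5b itself. The table had a median of -2.01 and 76.4% of genes below 0, and its 425 protein-coding genes had a median of -2.36. The 8 factors other than the 5 mRNAs had a median of -1.43, with 8 below 0 and 1 at an unadjusted p under 0.05. Factors with no early 2-cell count, such as Eif2s2, Paip2 and Paip2b, could only fall below 0. None passed in either stage comparison by edgeR, with 2 of 13 at an unadjusted p under 0.05 in the first, where the table had 22 of 495, and 3 of 13 in the second, where it had 122 of 495.

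The 5 tested protein-coding genes whose share followed that of Eif5b most closely over the 15 libraries were Map1b, a microtubule-associated protein (Spearman rho 0.875), the topoisomerase Top1 (0.824), the actin-binding Nexn (0.786), the nucleolar protein Ncl (0.739) and the Golgi protein Golgb1 (0.738). Pearson's r was 0.716, 0.851, 0.790, 0.501 and 0.635. The median rho over 424 genes was 0.0219 and the lowest -0.785. Libraries share depth and a common total, and stage means contribute: after the mean of each stage was removed, rho was 0.464, 0.595, 0.686, 0.311 and 0.502 in the same order. Without PN5 Het replicate 3 and M2 KO replicate 1, the 2 libraries farthest from the median Eif5b share, rho was 0.879, 0.729, 0.687, 0.907 and 0.867. Ncl was at 4.07% in PN5 Het replicate 3, where Eif5b was at 11.7%. The 4 other initiation factor mRNAs did not rank near Eif5b. Eif3a had a rho of 0.367 (rank 53 of 424), Eif3c 0.151 (136), Eif4g1 -0.147 (309) and Abcf1 -0.606 (412). With stage means removed, rho was -0.187, -0.417, -0.379 and -0.693 in the same order. Eif3c had counts in 3 libraries and Eif4g1 in 7, so their rho rests largely on libraries tied at 0.

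**Figure D5:**
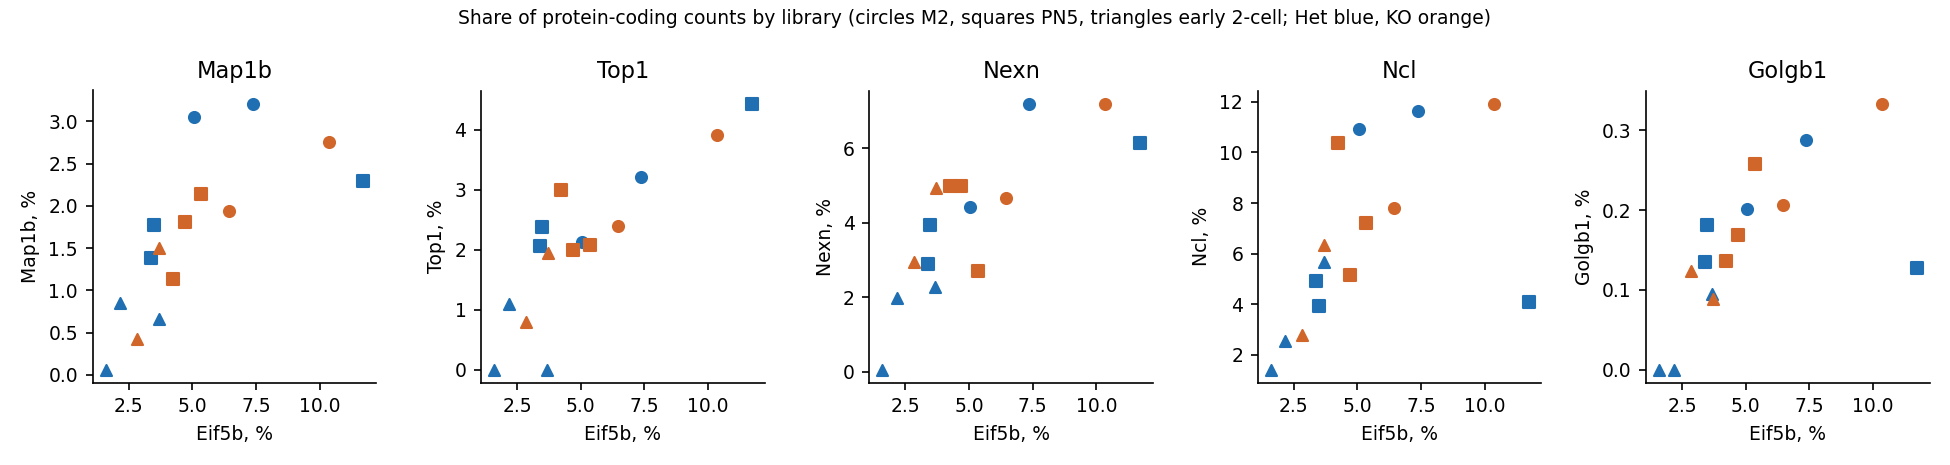
Share of protein-coding counts of Map1b, Top1, Nexn, Ncl and Golgb1 (y axes, percent) against that of Eif5b (x axes, percent), 1 point per library, with circles for M2 eggs, squares for PN5 zygotes and triangles for early 2-cell embryos. Early 2-cell libraries lie low in most panels, and in the Ncl panel the square at 11.7% Eif5b lies far below the other libraries with high Eif5b.

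Other genes annotated within or across the 5 loci had almost no counts. Rev1, which overlaps one end of the Eif5b locus, had 0 counts, and the small RNAs inside Eif3a, Eif3c, Eif4g1 and Abcf1 had 0 except Snord66 in Eif4g1 with 1. A long noncoding gene within Eif5b, Gm34448, was not matched in the table. Reads from low-complexity stretches or from related sequences elsewhere were not examined, and where along each mRNA its counts lie is not known from gene totals.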

How the data were processed

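From its layout, the deposited table was taken to hold estimated counts, whole numbers without scaling. Intervals, counting SDs and floors here treat each count as a read, which the sources used here do not state. GRCm38 is the build, and StringTie 2.1.4, STAR 2.7.6a, deepTools 3.5.1 and cutadapt are the tools, that the submitters' processing notes name. The sources used here do not state the counting step, nor the handling of ribosomal or multiply matching reads. Per the labels' protocols, digestion took 100 units of RNase I and 45 min, the anti-HA pull-down 4 h and amplification 22 PCR cycles. These settings were the same for all 15 libraries, and the part of amplification in the spread of thinly counted genes was not tested. Of the 55490 genes, 39101 matched RefSeq GRCm38.p6 by symbol and 164 by an older one, which gave biotypes and coordinates. The 16225 without a match are outside the protein-coding total.

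Shares are counts over the protein-coding total (1059 to 47399 a library), as mean ± SD. The floor is 3 counts per library, averaged over a group for folds. One edgeR 4.0.16 quasi-likelihood model (R 4.3.3, filterByExpr with minimum count 10, TMM, robust) covered 15 libraries and 6 groups, 495 genes, with 9 residual degrees of freedom. A call is an adjusted p under 0.05. SEs derive from each log2 fold change and its F statistic. No fitted fold is given where a group has no count, also after a library is left out. The steps were tested on simulated data. Genes named are the 5 members, Eif4e1b, Rpl22, the 8 other listed factors with most counts, and the 5 genes with the highest Spearman rho with Eif5b; the marker genes, overlapping genes, Cdk11b, Eif1, Eif4a1, Eif4e, Pabpc1, Pabpc1l and the uncounted eIF3 subunits were named after their values were seen. Members and lists were chosen with earlier results of these data known. Same-numbered Het and KO libraries had correlations of deviations across genes from -0.340 to 0.0961, so numbers were not taken as pairs.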

Additional observations from a re-analysis of the deposited data

How the results depend on the processing

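Over DESeq2 1.42.0 (Wald test), DESeq2 size factors, protein-coding totals, limma-voom 3.58.1, no low-count filter, the replicate block and the leaving out of each library, no fold change between KO and Het of the 5 mRNAs that could be fitted passed, and the fold change of Eif5b from PN5 to the early 2-cell stage kept its sign. That value passed by DESeq2, by limma-voom and without PN5 KO replicate 2 (adjusted p = 0.0459). Its adjusted p ran from 0.00204 to 0.401.

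Counts of called genes moved most in that comparison. Against 4 by edgeR, DESeq2 called 53, limma-voom 21, the unfiltered fit 16, protein-coding totals 2 and the replicate block 0, and leaving out 1 library gave 0 to 12. For KO against Het DESeq2 called 2 in M2 eggs, 2 in PN5 zygotes, 4 in early 2-cell embryos and 2 over the stages, and 1 from M2 to PN5, where edgeR called 0. Without the filter 1 was called in early 2-cell embryos, 1 over the stages and 2 for the difference between the KO effects of early 2-cell embryos and zygotes. Leaving out 1 library gave 0 to 1 in early 2-cell embryos and 0 in the other genotype comparisons.

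Signs of small fold changes turned with the setting. For KO over Het across stages, Eif5b was at 0.15 with protein-coding totals, 0.0294 by limma-voom, 0.10 unfiltered and 0.0253 with the replicate block, and Abcf1 at 0.0206 by limma-voom. In early 2-cell embryos Eif5b was at -0.0527 with DESeq2 size factors and -0.0547 by DESeq2. In PN5 zygotes limma-voom gave -0.59 for Eif3a and -0.15 for Eif4g1, and the replicate block -1.19 for Eif4g1. In M2 eggs Abcf1 was at 0.0903 by limma-voom and 0.26 unfiltered. The unfiltered difference of its KO effects between zygotes and eggs was -0.13.

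Leaving out 1 library, and omitting fits in which that left a group without counts, KO over Het ran from -0.28 to 0.77 for Eif5b, 0.24 to 2.20 for Eif3c and -0.81 to 1.70 for Abcf1 in M2 eggs. In PN5 zygotes it ran from -0.69 to 0.27 for Eif5b, -0.85 to 1.02 for Eif3a, -0.64 to 0.87 for Eif4g1 and -0.21 to 1.45 for Abcf1. In early 2-cell embryos it ran from -0.0791 to 0.19 for Eif5b and -2.43 to 1.93 for Abcf1, and across stages from -0.20 to 0.17 for Eif5b and -0.78 to 0.73 for Abcf1. From PN5 to the early 2-cell stage Abcf1 ran from -0.98 to 1.33. The difference of KO effects between zygotes and eggs ran from -1.16 to 0.12 for Eif5b, -1.49 to 0.38 for Eif3a and -1.37 to 1.37 for Abcf1, and that between early 2-cell embryos and zygotes from -0.19 to 0.77 for Eif5b and -3.61 to 1.59 for Abcf1. The KO minus Het share of Eif5b ran from -0.138 to 1.43 points. With the replicate block it was 0.364 points (7 pairs). The pairing changed no other call.

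The M2 deviations of same-numbered libraries correlated at -0.148, and with the M2 KO numbers crossed, an alternative chosen after seeing the data, 0 genes were called from PN5 to the early 2-cell stage. There the log2 fold change of Eif4g1 in PN5 zygotes was -0.90 and that of Eif5b across stages 0.0301. The cause of these shifts was not tested. Protein features and counts per codon were not run, since protein sequences were not used here. Precision is limited by 2 or 3 libraries a group and, in early 2-cell libraries, by 1059 to 7795 protein-coding counts.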
